A study of Arabidopsis thaliana with 6 samples.

Results

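The ribosome of the chloroplast is built from proteins of 2 genomes, and 39 of the nuclear genes for it were followed here in leaves of the Arabidopsis thaliana insertion line atpip1;2-1 and of its wild type. These 39 members, of 28387 genes in the deposited table, were taken by AGI locus code from a list of small subunit proteins (9), plastid-specific ribosomal proteins (6) and large subunit proteins (24). The list was taken up because 1 of its genes, RPL9, fell in the insertion line and another, AT5G65220, rose. The group was thus chosen by the measured difference between the lines in these 2 genes, and all differences of members between the lines are given as descriptions. The mutant, atpip1;2-1, carries T-DNA in PIP1;2, which codes for an aquaporin, and was measured on 3 arrays, as was the wild type N-60000. Leaves were taken at 3 weeks from greenhouse plants under a photoperiod of 12 hours at 24 °C by day and 20 °C by night, with CO2 at 370 µmol per mol. Each array held the RNA of 5 plants, so the spread between plants cannot be seen, and the mutant is represented by 1 insertion line.

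Chloroplasts descend from bacteria and kept a ribosome of the bacterial kind, with a small subunit that decodes the message and a large subunit that joins the amino acids. In leaves this ribosome makes the core proteins of the photosystems, of the ATP synthase and of Rubisco that the chloroplast genome still encodes. Most of its own proteins are made in the cytosol from nuclear genes and imported, and a smaller part is encoded in the chloroplast. A few of the imported proteins are called plastid-specific. The roles named for single proteins in what follows are those known for their bacterial counterparts unless stated otherwise. Of the members, 29 have a symbol in the RefSeq gene table and 10 are named by AGI code. Symbols that begin with EMB or emb stand for embryo defective, after the mutant seeds in which the gene was found.

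The arrays went with their labels. PIP1;2 (AT2G45960, listed as PIP1B) had log2 values of 5.16, 5.51 and 5.18 in atpip1;2-1 against 8.73, 9.14 and 8.74 in the wild type (12.0 times less). The position of its probes with respect to the T-DNA is unknown here. Values of 7 leaf genes, among them RBCS1A and PSBO1, lay between 5.92 and 12.3 in atpip1;2-1 and between 6.0 and 11.9 in the wild type. Values of 4 root, 3 flower and 3 seed genes lay between 1.44 and 3.33 in atpip1;2-1 and between 1.63 and 3.16 in the wild type. In whole leaves, fewer cells of a type and less RNA per cell cannot be told apart.

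RPL9 (AT3G44890, chromosome 3), for a large subunit protein at the base of the stalk that guides used tRNAs out, had log2 values of 9.58, 9.77 and 9.43 in atpip1;2-1, against 11.19, 11.25 and 11.06 in the wild type. All 3 mutant arrays lay below the lowest wild type array by more than 1 log2 unit. The mutant minus wild type difference, its log2 fold change, came to -1.57 (SE 0.16). That is 2.98 times less, and limma's adjusted p over all genes was 0.00955. Each SE here is limma's, which draws a gene's spread towards that of all genes, so it can differ from the gene's own scatter. AT5G65220 (chromosome 5), a large subunit gene, had 8.94, 8.75 and 9.11 in atpip1;2-1, against 7.89, 7.72 and 8.04 in the wild type. It went the other way, again without overlap: the log2 fold change was 1.05 (SE 0.17), which is 2.07 times more, and limma's adjusted p was 0.0420. These values chose the group and test nothing about it. Next outside the threshold of 0.05 stood AT3G13120 (adjusted p = 0.0708) and PRPS20 (adjusted p = 0.0784). For AT5G65220 the adjusted p was above 0.05 without any 1 of the 6 arrays (0.0791 to 0.182) and its direction was opposite in the table per probe set. For RPL9 it was above 0.05 without wild type replicate 2 (0.0511) and below it without any other array.

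**Figure D1:**
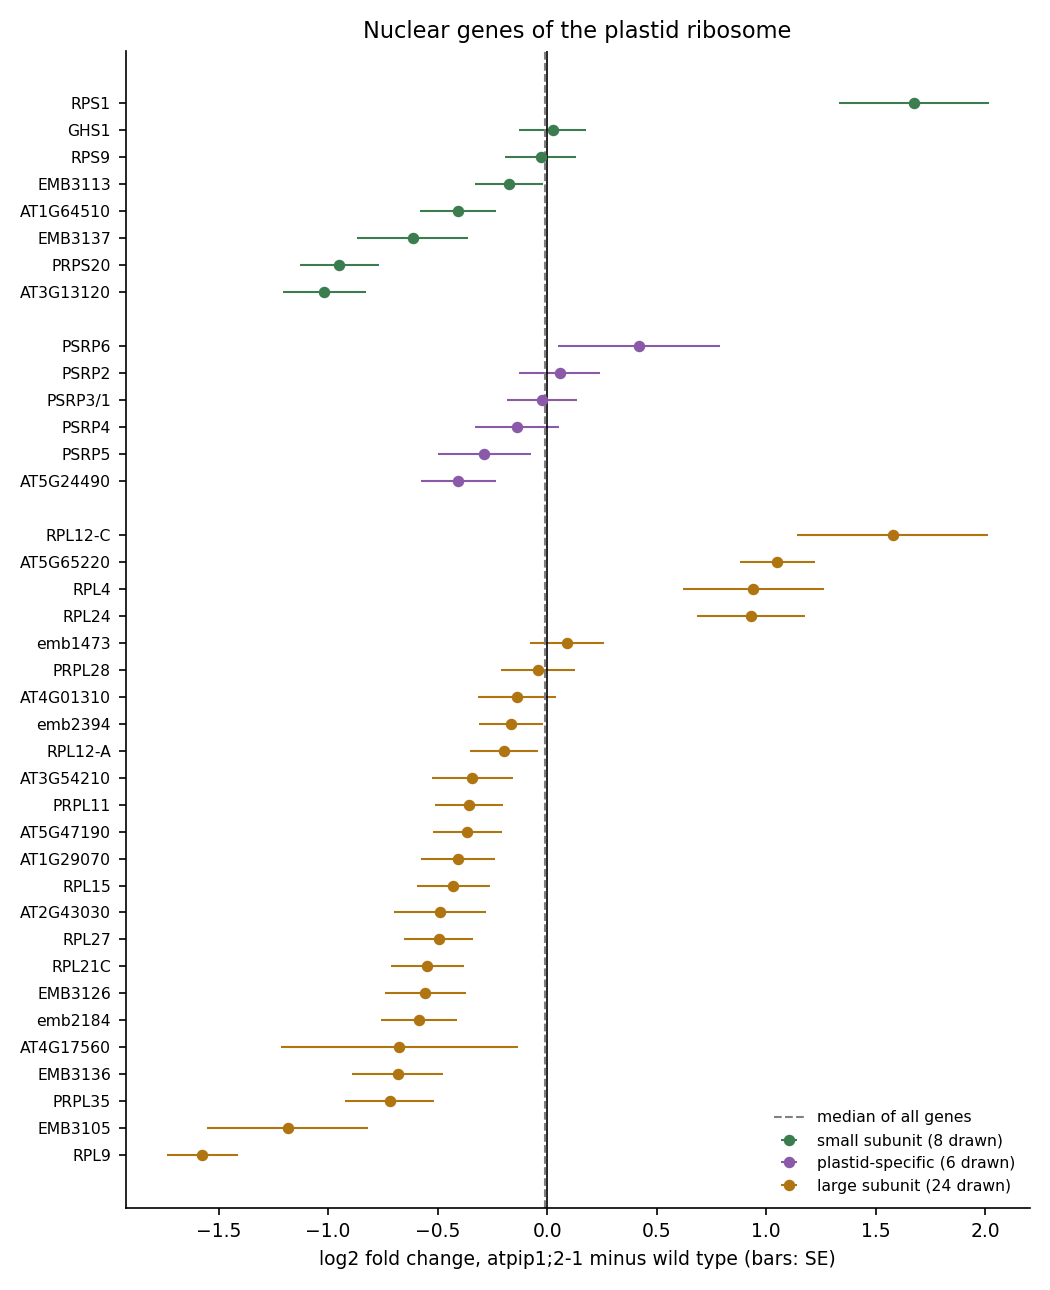
Log2 fold change (atpip1;2-1 minus wild type, x axis, bars showing the SE) of 38 of the 39 members, grouped as small subunit, plastid-specific and large subunit genes. Most points lie left of 0, with RPL9 at -1.57, while RPS1, RPL12-C, AT5G65220, RPL4 and RPL24 lie between 0.93 and 1.67.

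Of the 39 members, 2 passed the threshold (0.342% of all genes did), 1 higher and 1 lower, and these are the genes that chose the group. The other 37 did not pass. At an adjusted p under 0.01 there was 1 member (0.0458% of all genes), and under 0.1 there were 4 (0.673% of all genes). The log2 fold change was negative in 29 members and positive in 10, with a median of -0.34, where 51.6% of all genes were negative with a median of -0.010. The 3 mutant arrays lay wholly below the 3 wild type arrays in 20 members (9.24% of all genes) and wholly above them in 6 (9.3% of all genes), and the arrays overlapped in 13. Because the same contrast chose the group, nothing is read from these shares. A fold change larger than 1 in size on the log2 scale was seen in 6 members, 3 of them positive and 3 negative. The median SE of a member's log2 fold change was 0.18. The number past 0.05 moved with the fit, for members and for all genes. It was 8 with a variance trend and robust fitting (1.32% of all genes), 4 with array weights (0.486%), 4 with the dimmest 50% of genes left out (1.38%) and 2 with the dimmest 25% left out (0.578%). It was 2 with equal array medians (0.363%) and 1 with quantile normalization applied again (0.31%). With mutant replicates 1, 2 and 3 left out in turn it was 1 each time (0.0775%, 0.123% and 0.0845%). With wild type replicates left out it was 1 without replicate 1 (0.134%), 0 without replicate 2 (0.0493%) and 1 without replicate 3 (0.169%).

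**Figure D2:**
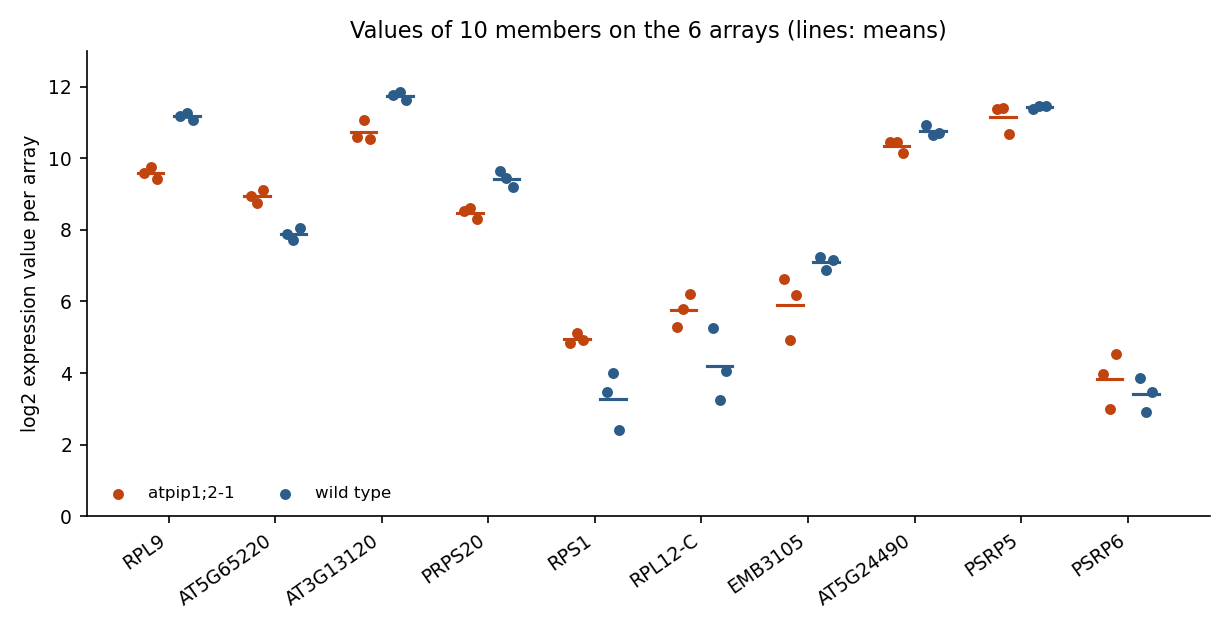
Log2 expression values (y axis) on each of the 6 arrays for RPL9, AT5G65220 and 8 further members, atpip1;2-1 left of the wild type for each gene, with horizontal lines at the means. The lines are apart without overlap in RPL9, AT5G65220, AT3G13120, PRPS20, RPS1, RPL12-C, EMB3105 and AT5G24490, and mixed in PSRP5 and PSRP6.

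Small subunit genes were spread from strongly negative to strongly positive fold changes. Of the 9, 6 had negative and 3 positive values, with a median of -0.17; none passed the threshold in limma and 6 had an unadjusted p under 0.05 (12.2% of all genes did). RPS1, for the protein that holds messenger RNA on the small subunit, had 4.83, 5.13 and 4.92 in atpip1;2-1, against 3.47, 3.99 and 2.40 in the wild type. The mutant arrays lay together and above all wild type arrays, which differed among themselves by more than 1 log2 unit. Its log2 fold change of 1.67 (SE 0.34) was the highest of the 39 members. AT3G13120 had 10.58, 11.07 and 10.54 in atpip1;2-1, against 11.78, 11.84 and 11.63 in the wild type. The groups did not overlap, and the log2 fold change was -1.02 (SE 0.19). PRPS20, for a protein that binds the ribosomal RNA early in assembly, had 8.52, 8.6 and 8.31 in atpip1;2-1, against 9.65, 9.45 and 9.18 in the wild type. The highest mutant array was below the lowest wild type array, with a log2 fold change of -0.95 (SE 0.18).

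Further small subunit genes had smaller differences. EMB3137 had 8.81, 8.34 and 7.73 in atpip1;2-1, against 8.91, 8.78 and 9.03 in the wild type. The groups overlapped, since mutant replicate 1 lay above wild type replicate 2, and the log2 fold change was -0.61 (SE 0.25). AT1G64510 averaged 11.44 ± 0.25 in atpip1;2-1 and 11.84 ± 0.07 in the wild type (SD, n = 3 each). EMB3113 averaged 11.36 ± 0.12 in atpip1;2-1 and 11.53 ± 0.08 in the wild type. Its SE from limma was nearly as large as the difference (-0.17, SE 0.16). RPS9, whose tail reaches the site where the growing chain is held, had a log2 fold change of -0.03 (SE 0.16). GHS1, named for seedlings hypersensitive to glucose, had 0.03 (SE 0.15).

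Plastid-specific genes had the narrowest range of log2 fold changes of the 3 classes. Of the 6, 4 had negative and 2 positive log2 fold changes, from -0.41 to 0.42 with a median of -0.08; none passed the threshold in limma and 1 had an unadjusted p under 0.05, near the 12.2% of all genes. AT5G24490 had 10.46, 10.46 and 10.14 in atpip1;2-1, against 10.93, 10.64 and 10.71 in the wild type. It was the 1 gene of this class without overlap (-0.41, SE 0.17), where 18.5% of all genes were without overlap. In the table per probe set its arrays overlapped (-0.12, SE 0.13). PSRP5, a protein of the large subunit, had 11.38, 11.39 and 10.68 in atpip1;2-1, against 11.38, 11.47 and 11.45 in the wild type. Mutant replicate 3 was low and the other mutant arrays lay within 0.1 of the wild type arrays, and the log2 fold change was -0.29 (SE 0.21). PSRP6, also of the large subunit, had 3.97, 3.00 and 4.53 in atpip1;2-1, against 3.85, 2.91 and 3.48 in the wild type, a wide scatter in both lines (0.42, SE 0.37). PSRP2, PSRP3/1 and the small subunit protein PSRP4 had log2 fold changes of 0.06 (SE 0.18), -0.02 (SE 0.16) and -0.14 (SE 0.19), all smaller than their errors.

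Large subunit genes were mostly negative: 19 of 24, with a median of -0.39. In 16 of the 24, RPL9 among them, the mutant arrays lay wholly below the wild type arrays (9.24% of all genes). Apart from RPL9 and AT5G65220 none passed the threshold. Genes for the mobile stalks and the region where translation factors bind gave different values. EMB3126, listed in RefSeq as plastid ribosomal protein L1 and the head of the stalk whose base RPL9 holds, averaged 11.21 ± 0.17 in atpip1;2-1 and 11.77 ± 0.25 in the wild type (SD, n = 3 each), with a log2 fold change of -0.56 (SE 0.19). PRPL11, at the factor-binding site, averaged 10.80 ± 0.09 in atpip1;2-1 and 11.15 ± 0.10 in the wild type (-0.36, SE 0.15). RPL12-C, for the stalk protein that recruits translation factors, had 5.30, 5.79 and 6.21 in atpip1;2-1, against 5.25, 3.25 and 4.07 in the wild type. Mutant replicate 1 and wild type replicate 1 were almost level, and the log2 fold change of 1.58 (SE 0.44) carried a large error. RPL12-A had 5.16, 5.07 and 4.89 in atpip1;2-1, against 5.19, 5.28 and 5.23 in the wild type (-0.20, SE 0.15). These genes and RPL12-B (0.16, SE 0.16), which is not among the 39, are named after the same protein and lie close together on chromosome 3. Their sequences were not compared, so how far the probes tell the copies apart is unknown here.

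RPL4, of the exit tunnel, and RPL24 had positive log2 fold changes, while RPL15, RPL27 and RPL21C had negative ones. RPL4, which lines the tunnel, had 5.69, 6.25 and 5.65 in atpip1;2-1, against 4.13, 5.23 and 5.41 in the wild type. All mutant arrays were higher than all wild type arrays, and the log2 fold change was 0.94 (SE 0.32). RPL24, an assembly protein near the tunnel exit, had 8.72, 8.76 and 8.90 in atpip1;2-1, against 7.97, 8.31 and 7.29 in the wild type (0.93, SE 0.24). The mutant values lay close together while wild type replicate 3 was low. RPL15 averaged 10.23 ± 0.15 in atpip1;2-1 and 10.66 ± 0.16 in the wild type (-0.43, SE 0.17). RPL27, which reaches towards the site of peptide bond formation, averaged 11.10 ± 0.14 in atpip1;2-1 and 11.59 ± 0.08 in the wild type (-0.49, SE 0.16). RPL21C averaged 11.41 ± 0.18 in atpip1;2-1 and 11.96 ± 0.11 in the wild type (-0.55, SE 0.17).

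EMB3105 had the lowest log2 fold change after RPL9, -1.18 (SE 0.37). Its values were 6.63, 4.93 and 6.19 in atpip1;2-1, against 7.25, 6.89 and 7.17 in the wild type. The wild type arrays agreed within 0.4 and mutant replicate 2 was the lowest of all by more than 1 log2 unit. EMB3136 had 11.33, 11.32 and 10.68 in atpip1;2-1, against 11.86, 11.84 and 11.67 in the wild type (-0.68, SE 0.21), with mutant replicate 3 the lowest array. PRPL35 had 4.73, 4.38 and 4.32 in atpip1;2-1, against 4.86, 5.47 and 5.24 in the wild type (-0.72, SE 0.20). The gene emb2184 averaged 7.28 ± 0.23 in atpip1;2-1 and 7.87 ± 0.11 in the wild type (-0.59, SE 0.17). The gene with the tightest arrays was emb2394, at 7.75 ± 0.03 in atpip1;2-1 and 7.91 ± 0.03 in the wild type, without overlap. Its log2 fold change was -0.17 (SE 0.15), where the SE draws on the spread of all genes and exceeds the gene's own scatter.

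Of the large subunit genes named by AGI code, AT5G47190 (-0.37, SE 0.16), AT1G29070 (-0.41, SE 0.17), AT3G54210 (-0.34, SE 0.19) and AT2G43030 (-0.49, SE 0.21) had mutant arrays wholly below the wild type arrays. AT2G43030 had the lowest values of the 39, 1.65 to 2.30 in atpip1;2-1 and 2.38 to 2.69 in the wild type, near the bound of the dimmest 25% of genes (2.20). AT4G17560 had 3.50, 4.98 and 3.90 in atpip1;2-1, against 3.50, 5.73 and 5.18 in the wild type. Its arrays overlapped and it had the widest spread within lines of any member, so its log2 fold change of -0.67 had an SE of 0.54. AT4G01310 (-0.14, SE 0.18), PRPL28 (-0.04, SE 0.17) and emb1473 (0.09, SE 0.17) overlapped between the lines.

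**Figure D3:**
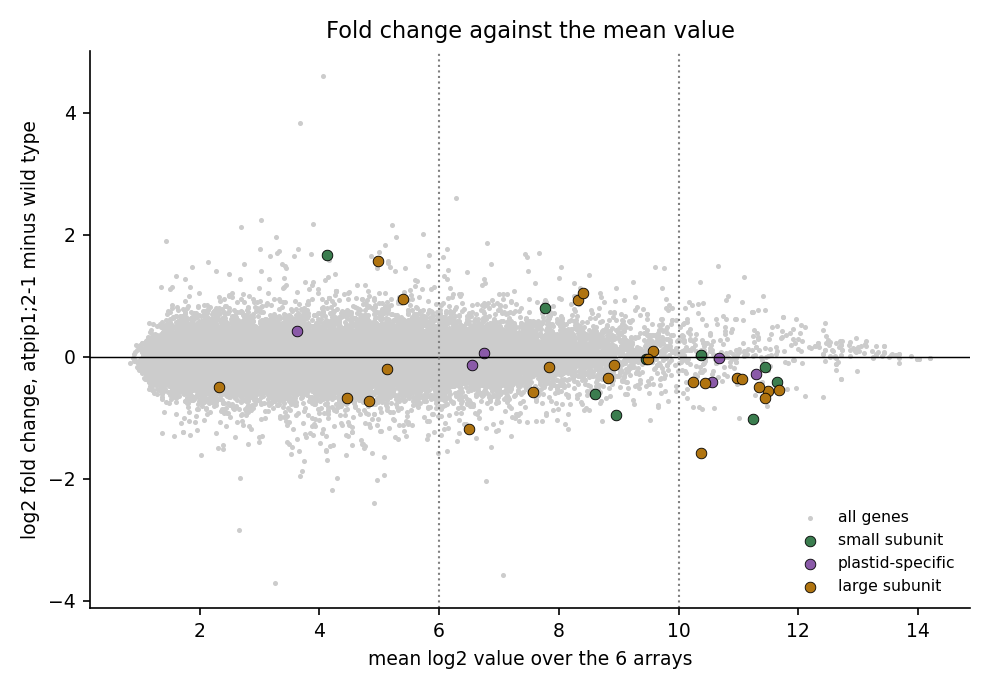
Log2 fold change (y axis) against the mean log2 value over the 6 arrays (x axis) for all genes in grey and the members in colour by class, with dotted lines at means of 6 and 10. To the right of 10, 15 of the 16 members lie below 0, while members left of 6 lie on both sides.

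Among the members, negative fold changes were most frequent at high log2 values. A split at mean values of 6 and 10, chosen after the data were seen, left 16 members at 10 or more, 15 in between and 8 under 6. RPL9 is among the 16 and AT5G65220 among the 15, and both chose the group. The counts and shares by level are therefore descriptions, and nothing is read from them. At 10 or more, 15 of 16 members were negative (34% of all genes there) with a median of -0.41, and in 12 the mutant arrays lay wholly below the wild type arrays (15.2% of all genes at that level). The exception was GHS1 (0.03). The other 319 genes at 10 or more had a median of 0.10, and 31.0% of them were negative. They include 4 cytosolic ribosome genes from a list given below, all negative, with a median of -0.59. Between 6 and 10, 10 of 15 members were negative (45.8% of all genes there) with a median of -0.14, and 5 had mutant arrays wholly below the wild type arrays (11.9%). Under 6, 4 of 8 members were negative (53.4%) and 3 had mutant arrays wholly below (8.42%). In these dim members the median SD within lines was 0.57, against 0.15 in the members at 10 or more. In the table per probe set 5 of the 16 were named, all negative, with a median of -0.21. No member had a mean above 9.83 there. A log2 value depends on a gene's own probes, so the bounds of 6 and 10 do not order the members by amount of transcript.

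Within the mutant line the members at a mean of 10 or more tended to share their low and high arrays. Mutant replicate 3 had the lowest of the 3 mutant values in 22 of 39 members, and in 14 of the 16 at a mean of 10 or more, while it was lowest in 35.6% of all genes. The median deviation of those 16 from the other 2 mutant arrays was -0.27 in replicate 3, 0.18 in replicate 2 and 0.03 in replicate 1. In the wild type the same deviations were -0.07 in replicate 3, 0.02 in replicate 2 and 0.03 in replicate 1. The other 319 genes of that level had deviations between -0.03 and 0.03 on all 6 arrays. Across the 6 arrays, with each line's mean removed, the median correlation of the 16 was 0.52 over 120 pairs, and that of all 39 was 0.05 over 741 pairs. All pairs share the same arrays and their processing. Without mutant replicate 3 the median log2 fold change of the 16 was -0.32, with 15 still negative, and that of all 39 was -0.24. What sets this array apart was not tested.

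Genes for the ribosomal proteins that the chloroplast itself encodes gave values mostly on the other side of 0. Of 26 listed AGI codes 25 were measured, with 21 distinct sets of values, since copies in the inverted repeat carry the same ones. The log2 fold change was positive in 19 and negative in 6, with a median of 0.18 and a range from -0.08 to 1.00. The mutant arrays lay wholly above the wild type arrays in 12 (9.3% of all genes) and wholly below them in 0 (9.24%), or above in 11 of the 21 distinct sets. Bright genes at large also leaned this way: of the 319 genes at a mean of 10 or more outside the 39, a set that includes most of these chloroplast genes, 220 were positive and 122 had mutant arrays wholly above. ATCG01020 rose: it had 11.38, 11.29 and 11.31 in atpip1;2-1, against 10.18, 10.34 and 10.47 in the wild type. The groups stood clear of each other, at 1.00 on the log2 scale (SE 0.16; limma's adjusted p = 0.0356). The other 24 did not pass the threshold. Mutant replicate 3 was the highest mutant array in 18 of the 25, with the copies of the inverted repeat counted. It was also the highest in 48.0% of the 319 bright genes outside the 39. In the nuclear members at a mean of 10 or more it was the lowest in 14 of the 16. With quantile normalization applied again the median of the chloroplast genes was 0.034. Without mutant replicate 3 it was 0.11. Chloroplast genes are often transcribed together in long precursor RNAs, so neighbouring genes are not independent measurements.

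Genes that act on the plastid ribosome without being part of it had log2 fold changes between -0.59 and 0.35. Among 15 plastid translation factor genes 7 were positive and 8 negative (median -0.07), none passed the threshold in limma and 3 had an unadjusted p under 0.05 (12.2% of all genes). The largest in size were AT4G11175, at 4.94 ± 0.30 in atpip1;2-1 and 5.52 ± 0.24 in the wild type (-0.59, SE 0.20), and AT3G08740, at 6.91 ± 0.24 in atpip1;2-1 and 7.44 ± 0.04 in the wild type (-0.54, SE 0.17; SD, n = 3 each). Elongation factor gene SCO1, needed for greening of cotyledons, had 0.04 (SE 0.15). Among 17 genes of ribosome maturation and ribosomal RNA processing in plastids 13 were negative (median -0.11), none passed in limma and 2 had an unadjusted p under 0.05, near the 12.2% of all genes. The largest in size were RIF10, for the polynucleotide phosphorylase that trims plastid RNAs, at 6.01 ± 0.20 in atpip1;2-1 and 6.6 ± 0.09 in the wild type (-0.59, SE 0.17), and emb2738, at 6.55 ± 0.09 in atpip1;2-1 and 6.93 ± 0.12 in the wild type (-0.38, SE 0.16).

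**Figure D4:**
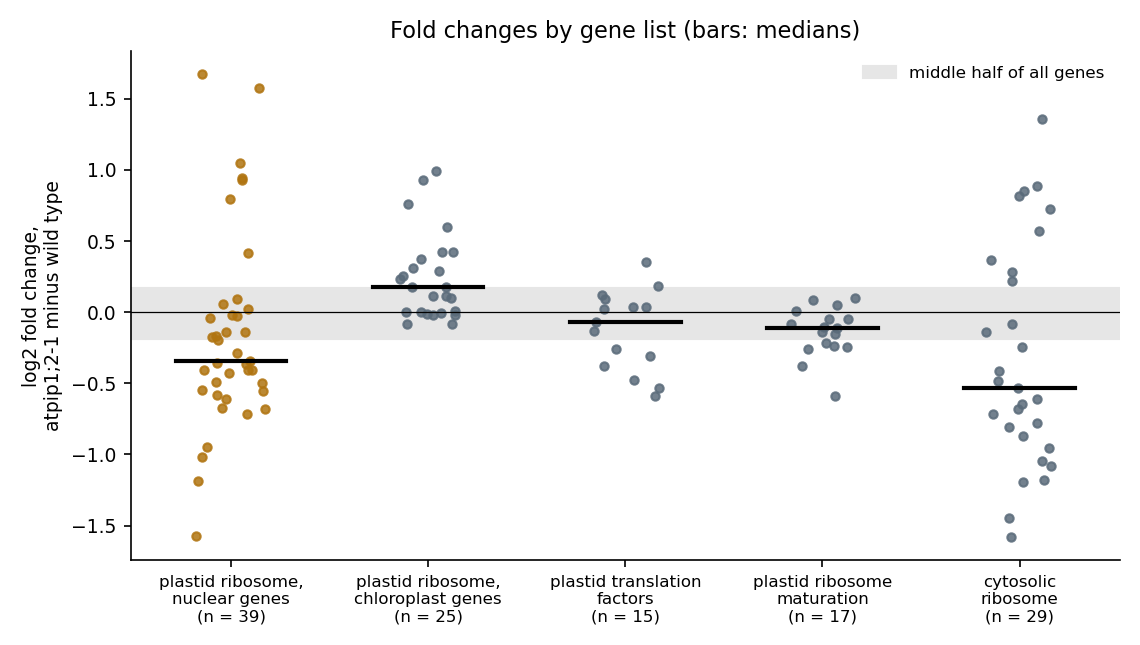
Log2 fold change (y axis) of each gene in 5 lists, with black bars at the medians and a grey band over the interquartile range of all genes. The medians are -0.34 for the nuclear plastid ribosome genes, 0.18 for the chloroplast genes, -0.07 for translation factors, -0.11 for maturation genes and -0.53 for cytosolic ribosome genes.

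The cytosolic ribosome genes listed here also had more negative than positive values. They were chosen with earlier results of these data known, and nothing is read from them about other genes of that ribosome. Of 29 listed genes of the cytosolic ribosome, which translates nuclear messages, 20 were negative and 9 positive, with a median of -0.53 and a range from -1.58 to 1.36. Mutant arrays lay wholly below the wild type arrays in 15 (9.24% of all genes) and wholly above them in 2 (9.3%). By mean value, 4 of 4 were negative at 10 or more, 11 of 16 between 6 and 10 and 5 of 9 under 6. Of all genes at these levels 34%, 45.8% and 53.4% were negative. The gene RPS6 (AT4G31700), for a phosphorylated protein of the small cytosolic subunit, fell (-1.20, SE 0.20, adjusted p = 0.0491 by limma). It had 6.72, 6.27 and 6.17 in atpip1;2-1, against 7.32, 7.68 and 7.73 in the wild type. These values are of this 1 gene and not of every gene for its protein. The other 28 did not pass, among them EMB3010, which was positive with overlapping arrays (0.73, SE 0.32). Many cytosolic ribosomal proteins have several near-identical genes, so single values there are uncertain. The lists share the same 6 arrays, and no difference between them was tested.

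**Figure D5:**
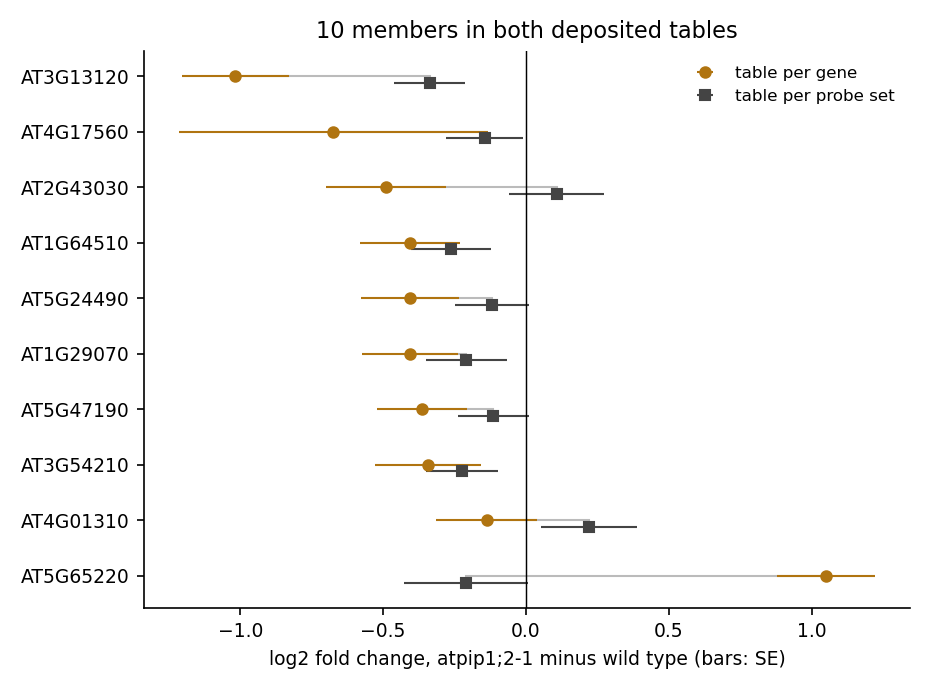
Log2 fold change (x axis, bars showing the SE) of the 10 members measured in both deposited tables, circles for the table per gene and squares for the table per probe set. The squares lie nearer 0 in 9 of the 10 genes, and AT5G65220 stands at -0.21 per probe set and 1.05 per gene.

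A second deposited table, with 1 value per probe set, named 10 of the 39 members, and RPL9 was not among them. There 8 of the 10 were negative (54.9% of all named genes) and 4 had mutant arrays wholly below the wild type arrays (10.3%), with a median of -0.18 where the table per gene gave -0.41 for the same 10. The direction was the same in 7 and opposite in 3, and the size was smaller in 9. No member passed the threshold in limma (0.206% of 16505 genes did). An unadjusted p under 0.05 was found for 1 member, AT3G13120, and for 1932 of the 16505 genes. AT5G65220 had 9.22, 9.10 and 8.40 in atpip1;2-1, against 9.05, 9.05 and 9.25 in the wild type. Here mutant replicate 3 was low and the other mutant arrays lay among the wild type arrays, with a log2 fold change of -0.21 (SE 0.22) in place of 1.05. AT3G13120 had 9.56, 9.70 and 9.72 in atpip1;2-1, against 10.01, 10.04 and 9.94 in the wild type. It kept its separation without overlap, with a log2 fold change of -0.34 (SE 0.12) in place of -1.02. AT1G64510 (-0.26, SE 0.14), AT3G54210 (-0.22, SE 0.13) and AT5G47190 (-0.11, SE 0.12) also stayed without overlap. AT1G29070 (-0.21, SE 0.14) and AT5G24490 (-0.12, SE 0.13) overlapped there and did not in the table per gene. AT2G43030 (0.11, SE 0.17) and AT4G01310 (0.22, SE 0.17) were positive there, with overlap, and negative in the table per gene. AT4G17560, so scattered in the table per gene, had an SD within lines of 0.12 in place of 0.99 and a log2 fold change of -0.14 (SE 0.13). Both tables come from the same arrays, so the second is no replicate of the first, and the probes behind each value are unknown here.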

How the data were processed

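Total RNA of leaves was measured on 6 Affymetrix arrays, 3 for each line, with RNA of 5 plants on each. The values are log2 expression values deposited by the authors, 1 per AGI code and array. The submitters' processing notes name Partek and RMA (background correction, normalization across arrays and probe summary) and give no versions. The grouping of probes, the build and batches are not stated in those notes or labels. Another deposited table, per probe set, was taken as log2 and uncentred from its range. There 16722 of 38408 probe sets had 1 gene symbol, 759 several and 20927 none here. The 16670 that led to a single AGI code gave 16505 genes, by the mean where a gene had several. No detection calls were used, so dim genes stayed in, and precision is limited by there being 3 arrays a line; p-values measure the spread between these pools. Array medians lay between 3.78 and 3.84, and correlations between arrays over genes between 0.975 and 0.989.

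The 28387 genes were compared by line alone using lmFit and eBayes of limma 3.58.1 (R 4.3.3). Each SE was computed from the eBayes variance of the gene. The test was two-sided, and the threshold of 0.05 applied to Benjamini-Hochberg values taken over the whole table. Alternatives were the probe-set table, filters on dim genes, array weights, a variance trend with robust fitting, renormalization, a replicate block and leaving out each array. The fit was tested on simulated data. Members and lists were chosen with earlier results of these data known, from textbook knowledge of plastid and cytosolic translation. Array values were to be given for RPL9, AT5G65220, other members past the threshold and the 3 largest fold changes of each class, and from each list for genes past the threshold or else the 2 largest. Others with array values were chosen after their values were seen. Symbols are those of RefSeq (assembly TAIR10.1), which held all 39 members. The values of 1 small subunit member are not reported here, though counts and medians include it. Protein and promoter sequences were not analysed here, nor were AT5G15760 and ATCG00810 of the lists. Tables and figures used Python 3.11.15, pandas 2.3.3 and matplotlib 3.10.9.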

Additional observations from a re-analysis of the deposited data

How the results depend on the processing

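The count of members past the threshold was 2 in the fit as reported. It was 4 of the 37 still tested with the dimmest 50% of genes left out. It was 4 with array weights, 8 with a variance trend and robust fitting and 1 with quantile normalization applied again. In the probe-set table it was 0 of 10. There 1 member had an unadjusted p under 0.05 by limma, as did 1932 of 16505 genes. The count was 1 at a threshold of 0.01 and 4 at 0.1. Leaving out 1 array at a time gave counts from 0 to 1. The 0 came without wild type replicate 2. The median log2 fold change of the members, -0.34, was -0.25 with array weights and between -0.40 and -0.24 with 1 array left out. In the probe-set table it was -0.18 over 10 members, where the table per gene gave -0.41 for the same 10. AT5G65220 reversed to -0.21 in the probe-set table, and the cause was not tested. With the replicate block 1 member, RPL9, passed (0.159% of all genes) and AT5G65220 had an adjusted p of 0.0716 by limma; the median was the same. Samples with the same replicate number had deviations from their line means that correlated at r between 0.0085 and 0.075 over genes. With different numbers r lay between -0.080 and 0.047. All these values were small, and the numbers were not taken as pairs. The dimmest 25% left out and equal array medians kept the count of 2.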
